A study of Mus musculus with 6 samples.

Results

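The D cyclins (Ccnd1, Ccnd2 and Ccnd3), their kinase partners Cdk4 and Cdk6, and the INK4 inhibitors (Cdkn2a, Cdkn2b, Cdkn2c and Cdkn2d) were examined for binding of Ikaros (Ikzf1), a lymphoid DNA-binding protein with zinc fingers, in mouse natural killer (NK) cells. These 9 genes were taken by name, and their rows were read from 3 lists of chromatin immunoprecipitation sequencing (ChIP-seq) peaks in which the authors had named a gene for every peak. The lists named 2714 genes in all, and 11 of their 4809 rows carried one of the 9 names. Of the 9 genes, 4 were named at a peak (Ccnd2, Cdk6, Cdkn2a and Cdkn2c), and 5 were not (Ccnd1, Ccnd3, Cdk4, Cdkn2b and Cdkn2d).

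D cyclins are the cyclins that extracellular growth signals induce. They bind and activate CDK4 and CDK6, which phosphorylate the retinoblastoma protein and so release E2F factors that drive entry into S phase, while INK4 proteins bind the same kinases and keep them inactive. Lymphocytes rely mostly on cyclins D2 and D3 and on CDK6.

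The series held 3 libraries of Ikzf1 knockout (KO) NK cells, in which the gene was deleted conditionally in cells that express NKp46, and 3 of wild type (WT) NK cells. Splenic NK cells had been expanded in culture with IL-15 at 50 ng/ml and precipitated with 2 µg of an antibody to Ikaros, the same in both genotypes. Each list used here came from 1 WT library, and the KO libraries were not analysed here, so that no comparison of genotypes was made. Whether the peaks depend on Ikaros was therefore not tested. Whether each library was made from its own animal or culture is not stated, so that the spread between them may be technical. The ages and strain of the mice are not given in the sources used here, and peak lists hold no expression by which the NK identity could be checked.

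WT replicate 1 had 685 peaks, replicate 2 had 2084 and replicate 3 had 1342. Replicates are numbered here as in the sample titles, and the authors' peak names number replicate 3 differently. Sequencing depth is unknown, as no reads are counted in these files, and a gene without a peak cannot be told apart from a weakly bound one. Fold enrichment, the authors' ratio of a peak's signal to its background, had medians of 5.10, 4.73 and 4.99 in the 3 lists and reached 46.4, 85.2 and 70.7. Peaks of different lists that shared at least 1 base were joined into a region. A percentile below is the rank of a peak's fold enrichment within its own list, with the strongest peak at the top, and percentiles of different lists are not compared since the lists differ in length.

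Of the 9 genes, 4 (44.4%) were named at a peak of any list, against 9.40% of the 21887 protein-coding genes of the RefSeq annotation. The same 4 (44.4%) were named at a region in 2 or more lists, against 4.29% of protein-coding genes. A region in all lists was named for 3 of the 9 (33.3%), against 1.95% of protein-coding genes. By role, these 3 were 1 of the 3 D cyclins (Ccnd2), 1 of the 2 kinases (Cdk6) and 1 of the 4 INK4 genes (Cdkn2a). The 9 genes were chosen with earlier results of these data known, so these shares are a description and were not tested.

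Sequence of the 300 bases around an annotated start, from 250 bases before to 50 bases from the start on, was available from RefSeq (GRCm38.p6, the build that mm10 names) for 7 of the 9 genes, with 10 such windows between them. Of the 10 windows 1, at the first start of Cdkn2c, shared a base with a region in 2 or more lists, against 2.00% of all 32851 windows. At Cdk6 and Cdkn2d the region instead covered the window of a neighbouring gene, the long noncoding RNA gene Gm36470 and the protein-coding gene Kri1. These 3 windows are shown because they hold the bases covered by peaks that the tables allow to be read, and that of Cdk4 is shown as a window without a peak in any list. They lie at chr4:109666707-109667006 (Cdkn2c, minus strand), chr5:3342203-3342502 (Gm36470, minus strand), chr9:21287920-21288219 (Kri1, minus strand) and chr10:127063285-127063584 (Cdk4, plus strand). Capitals mark the letters GGAA or its reverse complement TTCC, the core that Ikaros motifs share with those of ETS factors.
Cdkn2c: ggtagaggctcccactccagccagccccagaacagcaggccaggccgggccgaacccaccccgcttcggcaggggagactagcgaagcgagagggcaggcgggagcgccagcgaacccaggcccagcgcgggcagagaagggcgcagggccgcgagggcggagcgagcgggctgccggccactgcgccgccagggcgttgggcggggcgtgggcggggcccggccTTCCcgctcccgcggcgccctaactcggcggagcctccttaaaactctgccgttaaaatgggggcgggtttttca
Gm36470: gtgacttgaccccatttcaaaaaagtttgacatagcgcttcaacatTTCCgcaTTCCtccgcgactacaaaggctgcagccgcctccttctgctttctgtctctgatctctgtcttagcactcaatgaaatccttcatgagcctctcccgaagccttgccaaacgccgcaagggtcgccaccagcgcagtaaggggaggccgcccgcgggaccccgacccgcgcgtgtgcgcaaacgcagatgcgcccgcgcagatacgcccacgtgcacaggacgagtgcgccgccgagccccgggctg
Kri1: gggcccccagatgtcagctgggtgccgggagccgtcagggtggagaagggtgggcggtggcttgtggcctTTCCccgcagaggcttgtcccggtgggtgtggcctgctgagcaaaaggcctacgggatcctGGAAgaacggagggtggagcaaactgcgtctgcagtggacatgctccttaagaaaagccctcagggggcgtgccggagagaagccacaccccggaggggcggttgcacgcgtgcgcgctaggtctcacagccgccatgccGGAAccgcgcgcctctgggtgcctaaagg
Cdk4: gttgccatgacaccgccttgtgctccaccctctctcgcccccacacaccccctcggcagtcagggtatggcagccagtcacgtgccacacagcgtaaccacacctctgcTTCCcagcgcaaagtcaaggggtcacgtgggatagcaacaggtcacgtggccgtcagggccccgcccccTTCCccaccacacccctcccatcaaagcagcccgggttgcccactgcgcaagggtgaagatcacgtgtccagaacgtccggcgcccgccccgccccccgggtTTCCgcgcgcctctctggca

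Both strands were searched for GGAA, for the longer GGGAA and TGGGAA of the Ikaros core, each of which contains the shorter ones, and for the AP-1 letters TGACTCA. These were present in 96.0%, 62.7%, 25.6% and 5.20% of all windows in that order, and the median window held GGAA 3 times. The Cdkn2c window held GGAA 1 time and GGGAA 1 time, as the same letters at base -25 from the start, inside the 199 bases that the peaks of both lists covered. The Kri1 window held GGAA 3 times and GGGAA 1 time, and of the GGAA matches 1 lay wholly inside the 132 bases covered in all lists, at base -180. The Gm36470 window held GGAA 2 times, at bases -204 and -197, both outside the 162 bases covered in all lists, which held none. The Cdk4 window, with no peak, held GGAA 3 times, GGGAA 2 times and TGGGAA 1 time. Other uncovered member windows differed in GGGAA. It occurred 2 times also at Cdkn2d, the second Ccnd3 start and both Cdkn2a starts. At Cdk6, Cdkn2b, the first Ccnd3 start and the second Cdkn2c start it occurred 0 times. GGGAA was present in 69.0% of all windows touched by a region of at least 2 lists, and in 62.6% of the rest. For TGGGAA these shares were 21.9% and 25.6%. AP-1 letters were found 0 times in the 4 windows printed above. Windows that shared a base with a region in 2 or more lists had a median GC content of 66.3%, against 52.7% for all windows. The GC content was 73.3% in the Cdkn2c window, 61.0% in the Gm36470 window, 66.7% in the Kri1 window and 67.0% in the Cdk4 window. The Cdk4 window, without a peak, was thus within the range of the bound ones printed here. Uncovered windows of other members lay inside and outside that range. Those of Cdk6, Cdkn2d and the second Ccnd3 start were inside it. Those of Cdkn2b, the first Ccnd3 start and the second starts of Cdkn2a and Cdkn2c were below it. That of the first Cdkn2a start was above it.

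Among the D cyclins, Ccnd2 was named in all lists, at broad and weak peaks over one end of the gene. Cyclin D2 is the D cyclin that cytokines induce in many lymphocytes. Fold enrichments at Ccnd2 were 4.06, 3.87 and 4.06 in WT replicates 1, 2 and 3 (mean 4.00, SD 0.107, n = 3), with −log10 q values of 1.51, 1.94 and 1.69. These were close to the lowest −log10 q values of the lists, 1.15, 1.06 and 1.12. The percentiles of 11.7, 16.6 and 16.5 put the peak among the weaker ones of each list. Its widths of 736, 821 and 703 bp were, in contrast, at percentiles of 92.8, 92.5 and 89.0 of peak width.

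The Ccnd2 region (ENSMUSG00000000184) lay on chromosome 6, 127151803 to 127152653 (mm10). Of its 851 bases, 386 were inside the gene span of 27.0 kb and 465 lay beyond its upper end. No strand or start was listed for Ccnd2, so whether this end is its start was not examined. The peaks of all lists shared 691 bases, and their midpoints fell within 72.5 bp of each other. The region was also inside 9330179D12Rik, a long noncoding RNA gene that overlaps that end of Ccnd2, and the authors' rows named both genes. WT replicate 2 alone had a further peak 2.82 kb beyond the same end of Ccnd2, at 127155008 to 127155830, named for 9330179D12Rik only. Its fold enrichment of 5.99, at percentile 80.6 and a −log10 q of 5.82, was above that of the peak over the gene end in the same list. The next peaks on either side, also in replicate 2 only, were named for Ndufa9 at 313 kb and Gm42458 at 209 kb.

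Neither Ccnd1 nor Ccnd3 was named at a peak. Ccnd1, on chromosome 7, 144929931 to 144939831, encodes the D cyclin best known from epithelial cells, and 0 peaks of any list were found within 500 kb of it. The nearest peak was 1099 kb away. No peak within 500 kb was the case for 28.7% of protein-coding genes. A peak as near as that of Ccnd1, or nearer, was found for 87.1% of protein-coding genes. Ccnd3 encodes the D cyclin that lymphocyte precursors depend on. It spans 94.6 kb of chromosome 17, 47505051 to 47599689, and had 1 peak within 500 kb, in WT replicate 2 only. That peak lay 65.4 kb away, was named for AI661453, and had a fold enrichment of 4.57 at percentile 44.5. For 27.8% of protein-coding genes a peak of any list was as near as this or nearer. For a region in 2 or more lists, 773 kb from Ccnd3, the share was 60.6%. The nearest peaks of replicates 1 and 3 were 773 and 753 kb from Ccnd3.

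Of the kinases, Cdk6 was named at a well enriched region in all lists, and Cdk4 at none. CDK6 is the D-cyclin kinase prominent in blood cells. Fold enrichments at Cdk6 were 5.95, 8.13 and 6.28 in WT replicates 1, 2 and 3 (mean 6.78, SD 1.17, n = 3), and −log10 q values were 5.43, 15.9 and 9.06. Cdk6 was the 1 gene of the 9 whose peak had a −log10 q of 5 or more in every list. Its percentiles were 75.6, 93.1 and 78.8, in the upper part of each list. The peaks were 211, 284 and 273 bp wide, at percentiles of 16.0, 47.5 and 41.7 of peak width. Their midpoints fell within 41.5 bp of each other.

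The Cdk6 region (ENSMUSG00000040274) lay on chromosome 5, 3342081 to 3342383 (mm10), wholly inside the gene span of 190 kb but upstream of the gene's annotated start in the window table, from -1.81 to -1.51 kb of it. Gm36470 runs the other way from Cdk6 and overlaps that end of it. One of its starts, at 3342252, lay within the 206 bases that the peaks of all lists shared. The region covered 167, 162 and 181 bases of that window in replicates 1, 2 and 3, and 0 bases of the window of Cdk6 itself. No other peak of any list was found within 500 kb of Cdk6, in spite of the length of the gene.

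Cdk4, on chromosome 10, 127063535 to 127067288, encodes the other D-cyclin kinase and is a short gene of 3.75 kb. It had no peak of any list within 74.2 kb. The 500 kb on either side held 16 peaks in 7 regions, of which 4 were in all lists. The nearest of these, at 127141520 to 127141938, was named for Gm23664, with fold enrichments of 4.84 in replicate 1, 5.55 in replicate 2 and 4.49 in replicate 3. The others in all lists were named for B4galnt1, Ctdsp2 and Atp23. A region in 2 or more lists lay as near to 15.3% of protein-coding genes as it did to Cdk4.

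**Figure D1:**
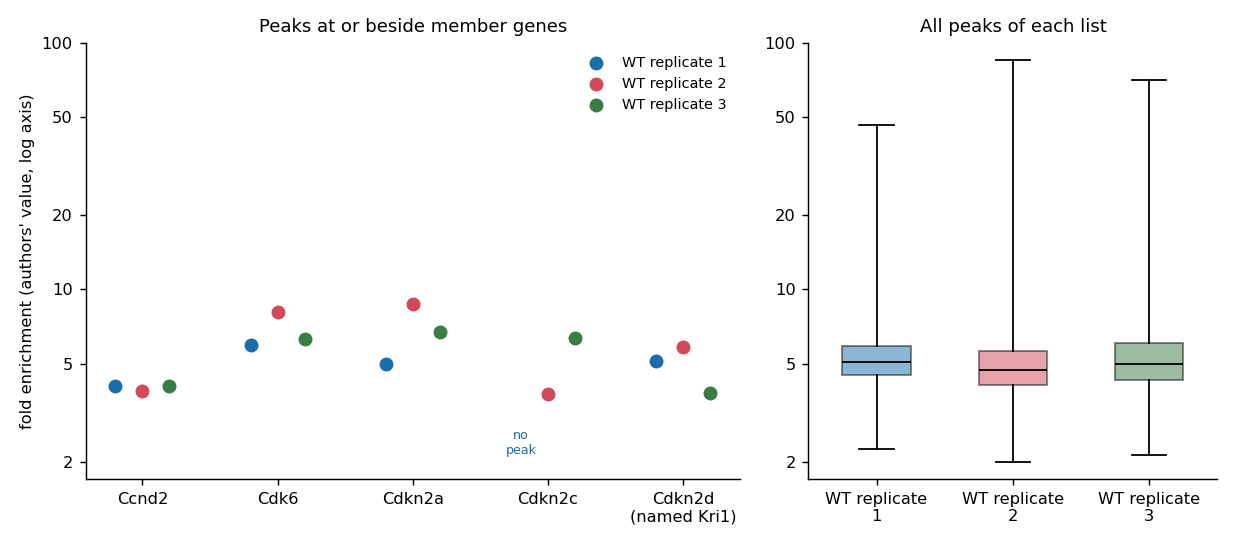
Fold enrichment, as the authors gave it, on a log axis: left, 1 point per peak and WT list at the member genes with a region, Cdkn2d being shown by the peak beside it that was named Kri1; right, all peaks of each list, with the box at the quartiles, the line at the median and the whiskers at the lowest and highest peak. Ccnd2 peaks sat at 3.87 to 4.06, below the list medians of 4.73 to 5.10, and Cdk6 peaks at 5.95 to 8.13, above them.

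Among the INK4 genes, Cdkn2a was named in all lists. It encodes the CDK4 and CDK6 inhibitor p16INK4a and, from a start farther upstream and in another reading frame, p19ARF, which acts on p53 through Mdm2. Fold enrichments at Cdkn2a were 4.98, 8.77 and 6.72 in WT replicates 1, 2 and 3 (mean 6.82, SD 1.90, n = 3), with −log10 q values of 3.13, 12.5 and 7.21. The percentiles of 45.1, 94.9 and 84.4 put it below the middle of the list of replicate 1 and among the strong peaks of the other lists. The peak of replicate 1 was also narrower than the others, 406 bp against 931 and 802 bp, and lay wholly inside both of them. All were broad for their own lists, at percentiles of 75.1, 95.1 and 91.7 of peak width in replicates 1, 2 and 3.

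The Cdkn2a region (ENSMUSG00000044303), on chromosome 4, 89284836 to 89285766 (mm10), fell between both annotated starts of the gene. It was 8.85 to 9.78 kb downstream of the first start, at 89294619, that of p19ARF, and lay at -3.57 to -2.64 kb of the second, at 89282192, that of p16INK4a. Neither start window shared a base with a peak. Cdkn2b, which encodes p15INK4b and lies farther along the same chromosome, had no peak of its own. The Cdkn2a region was the nearest to it, 20.5 kb from the span of Cdkn2b (89306289 to 89311032), and no other peak of any list was found within 500 kb of either gene.

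Cdkn2c, which encodes p18INK4c, was named in 2 of the 3 lists, and its region sat on an annotated start of the gene. Among the 7 members with a start window this was the 1 covered, and the starts of Ccnd1 and Ccnd2 were not in the window table. Fold enrichment at Cdkn2c was 3.79 in WT replicate 2 and 6.38 in replicate 3, with −log10 q values of 2.34 and 8.11. Within their own lists these were a weak peak, at percentile 13.1, and a strong one, at percentile 80.6, although their widths of 276 and 250 bp were alike. Replicate 1 had no peak there, and its nearest was 2690 kb away. The region (ENSMUSG00000028551), on chromosome 4, 109666630 to 109666932 (mm10), ran from -176 to 126 bp of the first start of Cdkn2c, at 109666756, and the peaks of both lists shared 223 bases. Of the window printed above, 199 bases were covered in replicate 2 and 226 in replicate 3. The second start of Cdkn2c, at 109665372 inside the gene, was not covered. A peak of replicate 3 alone, 9.73 kb from Cdkn2c, was named for Faf1 and had a fold enrichment of 4.37. On the other side the nearest region, named for Eps15, was 381 kb away.

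Cdkn2d, which encodes p19INK4d, was named at no peak, yet a region in all lists lay 170 bp from its span. The authors named this region for Kri1, a gene for a nucleolar protein, which was nearer. Fold enrichments were 5.15, 5.87 and 3.79 in WT replicates 1, 2 and 3 (mean 4.94, SD 1.06, n = 3), at −log10 q values of 3.87, 6.93 and 2.05. Percentiles were 52.0, 78.6 and 6.86, so the peak was near the middle, high and low in the 3 lists. The region lay on chromosome 9, 21288004 to 21288288 (mm10), in the gap between both genes, 54, 34 and 118 bp from Kri1 by the authors' distances in replicates 1, 2 and 3. Both genes lie on the minus strand, so that it was beside the start of Kri1 and past the far end of Cdkn2d, 2.92 to 3.21 kb downstream of the start of Cdkn2d at 21291209. The nearest other peak, 157 kb away and in replicate 3 alone, was named for Tyk2. When every region within 1 kb of a gene span was counted whatever gene was named, 5 of the 9 genes (55.6%) lay beside one shared by at least 2 lists, against 4.38% of protein-coding genes. This count was chosen after the peak beside Cdkn2d had been seen.

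**Figure D2:**
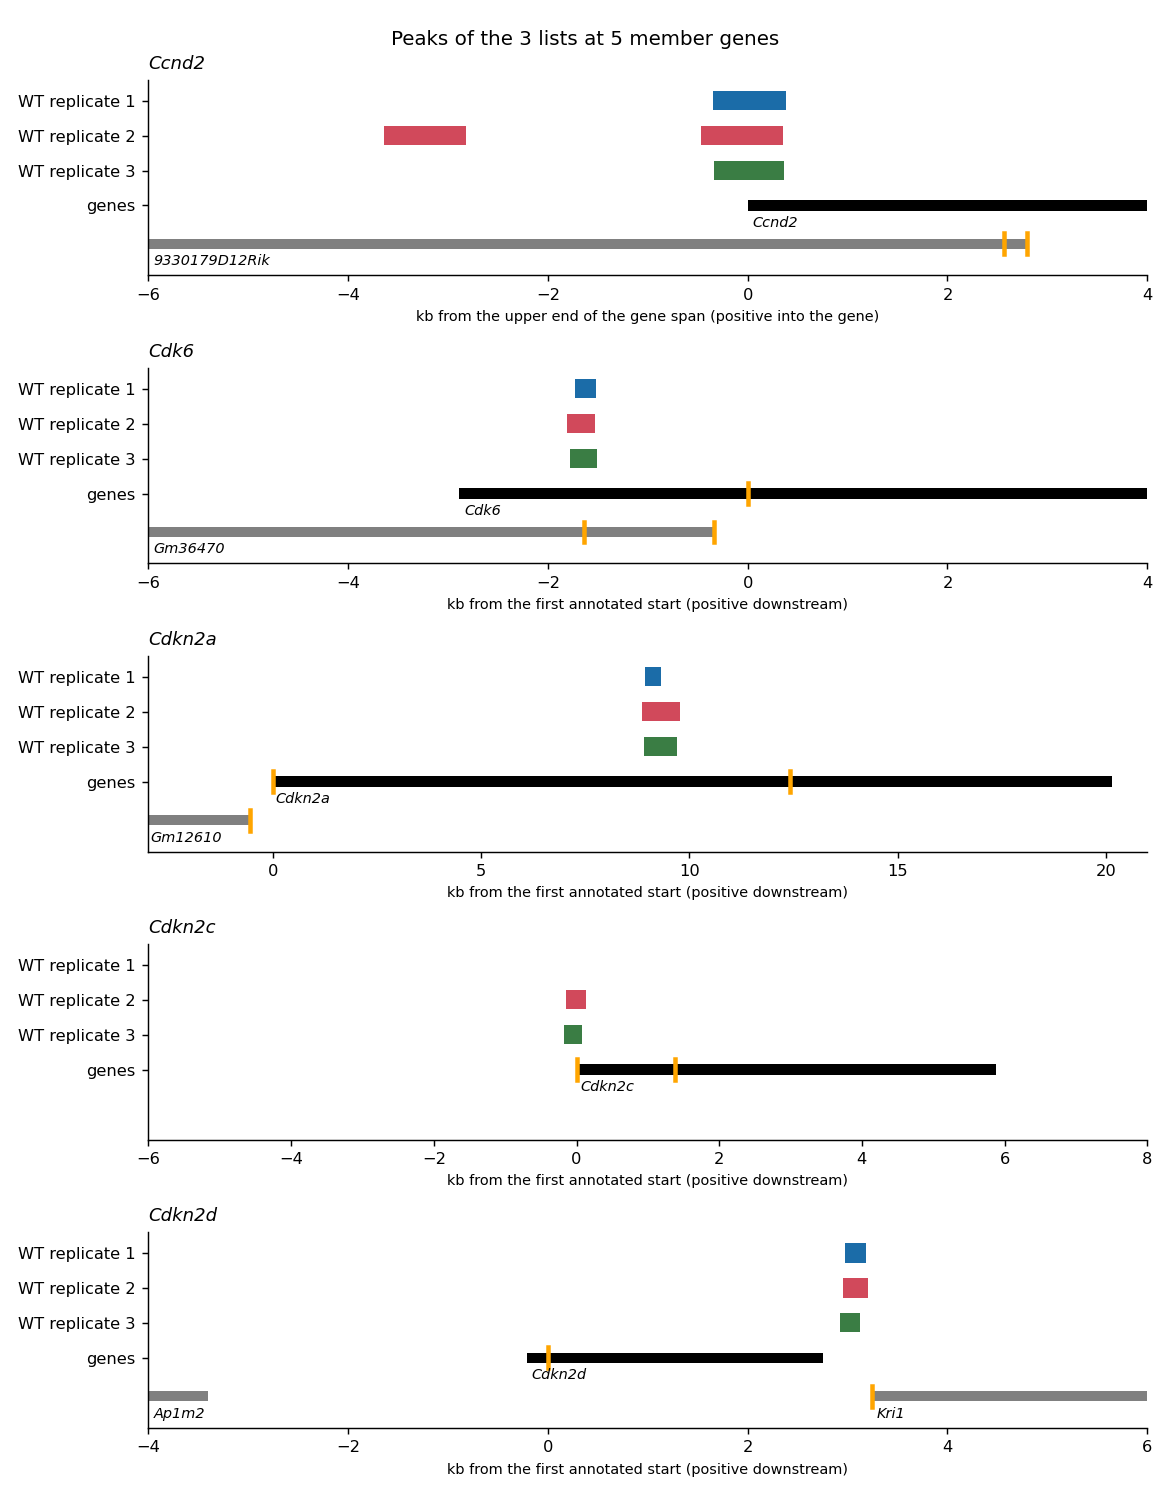
Peaks of each WT list (coloured bars) at 5 member genes, with the member's span in black, neighbouring genes in grey and annotated starts as orange ticks; the axis is the distance in kb from the member's annotated start farthest upstream or, for Ccnd2, from the upper end of its span. The region covers the start of Cdkn2c, lies between both starts of Cdkn2a, lies on a Gm36470 start upstream of that of Cdk6, and falls between Cdkn2d and Kri1.

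The positions of the 9 genes relative to the nearest peak thus fell into separate ranges. Ccnd2, Cdk6, Cdkn2a and Cdkn2c overlapped a region in 2 or more lists, as did 3.86% of protein-coding genes. Cdkn2d lay 0.170 kb, Cdkn2b 20.5 kb and Cdk4 74.2 kb from one. For Ccnd3 and Ccnd1 the distances were 773 and 1099 kb. The median distance to a region in 2 or more lists was 0.170 kb over the 9 genes and 528 kb over all protein-coding genes. Gene length differed widely, and a longer span can meet more peaks: Cdk6 spans 190 kb and Ccnd3 94.6 kb, whereas Cdkn2c spans 5.88 kb and Cdkn2d 2.96 kb.

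**Figure D3:**
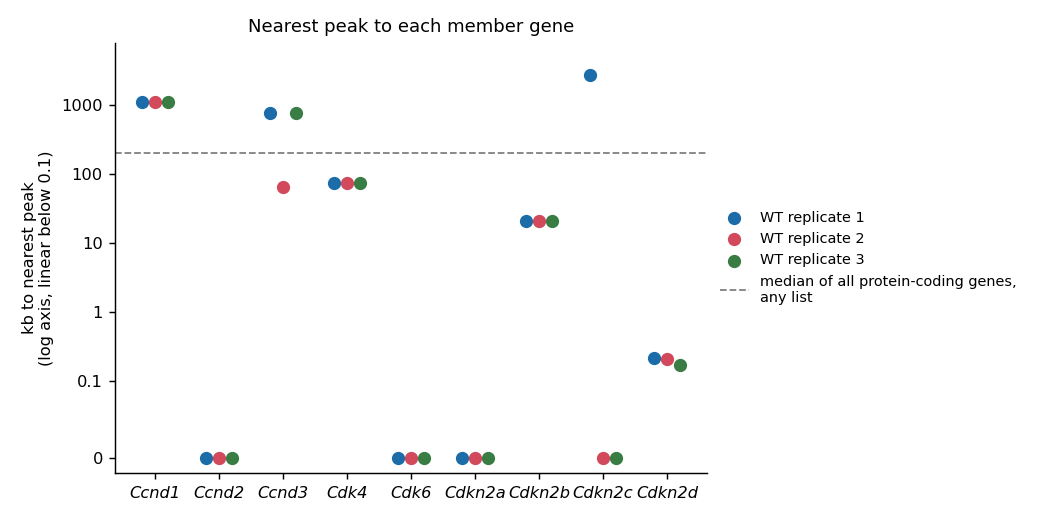
Distance in kb from each of the 9 gene spans to the nearest peak of each WT list, on an axis that is logarithmic above 0.1 kb and linear below it; the dashed line is the median over all protein-coding genes with the peaks of the lists joined (200 kb). Points at 0 overlap the gene, and the 3 lists gave similar distances for all genes but Ccnd3, where replicate 2 had a nearer peak, and Cdkn2c, where replicate 1 had none near.

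Other genes of the G1/S transition, in a list of 50 chosen by role and with earlier results of these data known, were read in the same way. Of the 50, 11 (22.0%) were named at a peak of any list, 4 (8%) at a region in 2 or more lists and 1 at a region in all lists, against 9.40%, 4.29% and 1.95% of protein-coding genes. Of the 4, 2 belonged to the MYC network. Mnt, which encodes a repressor that pairs with MAX in place of MYC, had a region over its start on chromosome 11, 74830288 to 74831056, with fold enrichments of 5.54, 4.75 and 6.22 in WT replicates 1, 2 and 3. The peaks of all lists covered the whole 300-base window of its start. Myc had a region over its lower end on chromosome 15, 61985128 to 61985746, with 4.75 in replicate 2 and 3.94 in replicate 3, and replicate 2 had a second peak inside the gene at 4.15.

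The other 2 genes with a shared region were E2f1 and Fbxw7. E2f1 encodes an E2F factor that the retinoblastoma protein holds back. Its region, on chromosome 2, 154570021 to 154570281, lay 128 bp outside the gene and upstream of its listed start, at -0.855 to -0.595 kb, with fold enrichments of 4.75 in replicate 1 and 4.88 in replicate 3. Fbxw7 encodes the F-box protein that marks cyclin E and MYC for destruction, and its region, on chromosome 3, 84912529 to 84912849, lay inside the gene with 6.41 in replicate 2 and 6.39 in replicate 3. Rb1 and E2f3 had a peak in replicates 2 and 3, but at places that did not overlap. Ccne1, E2f5, Gsk3b, Lin52 and Mycn had peaks in replicate 2 only, at fold enrichments of 3.57, 3.62, 4.96, 3.65 and 4.47.

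By group, a region in 2 or more lists was named for 2 of 4 MYC network genes, 1 of 10 E2F and DP genes and 1 of 13 CDK activators, chaperones and turnover factors. It was named for 0 of 6 genes of cyclins E and A with CDK1 and CDK2, 0 of 3 CIP/KIP inhibitors, 0 of 3 RB family genes, 0 of 7 DREAM and MuvB genes and 0 of 4 origin licensing genes, against 4.29% of protein-coding genes. At that share a count of 0 is common in groups this small, so the zeros say nothing particular about these groups, and no difference between CIP/KIP and INK4 genes was tested.

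**Figure D4:**
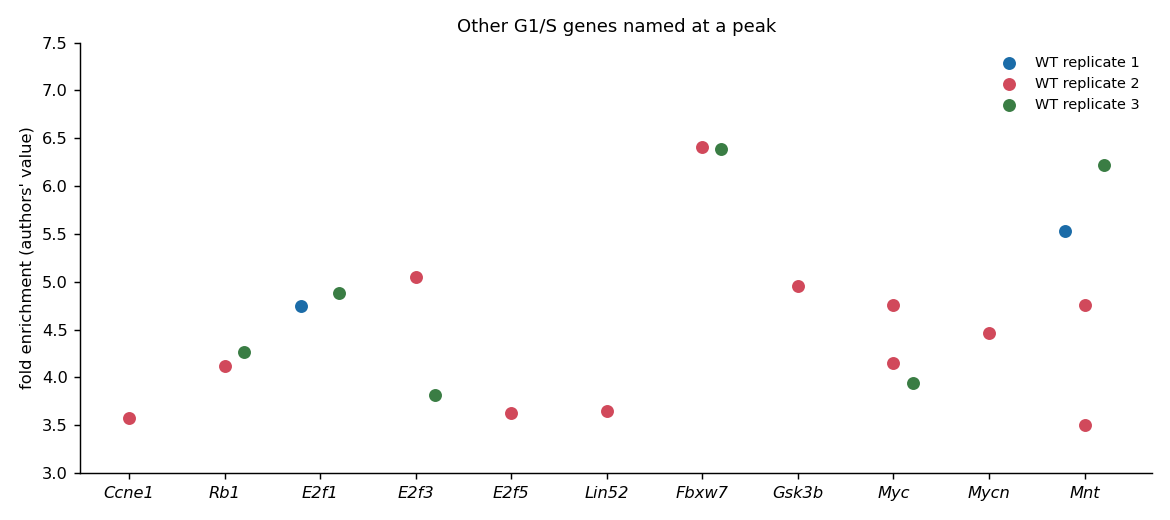
Fold enrichment, as the authors gave it, of each peak named for 1 of the 11 other G1/S genes with a peak, by WT list; points of 1 gene need not overlap in position. Values ran from 3.50 to 6.41, and Mnt alone had points of all 3 lists.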

How the data were processed

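Ikaros ChIP-seq was analysed from the peak lists that the authors deposited for 3 WT libraries. Per the submitters' processing notes, Subread, Picard, SAMtools, MACS2, edgeR 3.20.0 and mm10 were used, with no roles given. Per the labels, an input sample was set aside, but which control, extension, threshold and gene annotation lie behind the lists is not given in the sources used here. The authors' columns, per the file headers, hold a fold enrichment (a linear ratio), −log10 p and q values, a score, and a gene with its distance. Per the labels, 2% formaldehyde was used, and chromatin was sheared to 100 to 200 bp, which bounds the precision of a peak's position.

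Rows were reduced to 1 per peak, ranked within each list, and joined into regions where peaks shared at least 1 base. The same merging and distance functions were tested on simulated data. Gene spans, starts and windows came from the RefSeq tables (GRCm38.p6), and a distance counts the bases between a span and a peak. Ccnd1 and Ccnd2 had no window, and exons, introns and UTRs were not assigned. All 9 members and all 50 other G1/S genes matched the table. Members and lists were chosen with earlier results of these data known. Genes named in the text were all members, G1/S genes with a peak, other genes at a member's region, and the nearest peaks on either side of it within 500 kb. Genes at peaks around Cdk4 and Ccnd3 were added after their values were seen. No test was run, since each list is 1 library and no groups were compared. Alternatives changed the gene assignment, the −log10 q, the overlap, the list lengths and the lists used. Python 3.11.15, NumPy 2.4.6, pandas 2.3.3 and matplotlib 3.10.9 were used.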

Additional observations from a re-analysis of the deposited data

How the results depend on the processing

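No paired analysis was possible because only WT lists were used and nothing was compared between genotypes. Of the 9 genes, 4 had a shared region (at least 2 lists), which became 2 when −log10 q had to reach 5 and 2 with lists of equal length (Cdk6 and Cdkn2a both times), and 3 to 4 without 1 replicate, Cdkn2c being lost without replicate 2 or replicate 3. The count of 3 in all lists became 1 (Cdk6) with that −log10 q, 2 (Cdk6 and Cdkn2a) with lists of equal length, and 2 (Ccnd2 and Cdk6) with a reciprocal overlap of 50%. Without 1 replicate it was 3 to 4, but all lists then meant both remaining lists. Under that looser rule the count could not fall. The count of 4 among other G1/S genes became 2 with that −log10 q and 2 with lists of equal length (Fbxw7 and Mnt both times), and 1 to 3 without 1 replicate: 2 without replicate 2 and 1, Mnt, without replicate 3. Stricter thresholds and shorter lists leave fewer peaks by construction. With the RefSeq assignment or the authors' distance of at most 10 kb, these counts were the same. Counting peaks within 1 kb of the span, chosen after seeing the data, gave 5, 4 and 4. Within their own lists, the Ccnd2 peaks of replicates 1, 2 and 3 were at percentiles of 3.50, 13.8 and 6.63 by −log10 p, and of 9.68, 13.5 and 11.6 by fold enrichment among peaks shared with another list. Depth is unknown, so missing weak peaks cannot be read as missing binding.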
